A study of Mus musculus with 2 samples.

Results

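The 8 genes described here by the CHD2 peaks in and around them are Chd1, Chd3, Chd4, Chd5, Chd6, Chd7, Chd8 and Chd9, the relatives of CHD2 itself. They were chosen by name as the other members of its gene family, with earlier results of these data known. All 8 were found by exact symbol among the 21900 protein-coding genes of RefSeq on GRCm38.p6 (mm10). Each gene was examined over its body and 10 kb on each side, its window, and the rule uses no measured value. The binding of CHD2 had been measured by chromatin immunoprecipitation and sequencing in ES-E14, an embryonic stem cell line from a male 129/Ola mouse embryo. There was 1 group of 2 biological replicates, both precipitated with an antibody to CHD2, with no other genotype or treatment. The line could not be checked against marker genes, since peaks give no expression level. All values come from peak lists, in which each peak has a position, a summit and a signal assigned by the authors' peak caller.

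CHD proteins are ATP-driven enzymes that move, space or evict nucleosomes, and their paired chromodomains read the tails of histones. The family has 3 subfamilies. The first holds Chd1 and Chd2, which are linked to actively transcribed genes. The second holds Chd3, Chd4 and Chd5, the alternative motor subunits of the histone deacetylase complex NuRD. The third holds Chd6, Chd7, Chd8 and Chd9, large proteins that act at promoters and enhancers. In embryonic stem cells CHD1 is known for keeping chromatin open, CHD4 for restraining lineage genes and CHD7 for binding enhancers.

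Of the mm10 lists, the optimal list held 8282 peaks and the conservative list 7530. Both were derived from the replicates by the irreproducible discovery rate (IDR), a measure of how well the ranks of peaks recur. The pooled relaxed list and the relaxed list of each replicate held 300000 peaks each and reached far into weak signal. The signal ran from 5.74 to 463 in the optimal list, with a median of 29.6, and was compared only within a list. A rank counts from the strongest peak of its list. Read depth is unknown, which leaves every value without an interval from counting.

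CHD2 peaks lay in the windows of 5 of the 8 genes in the optimal list. These were Chd5 and the whole of the third subfamily, Chd6, Chd7, Chd8 and Chd9. Chd1, Chd3 and Chd4 had none. Chd6, Chd7 and Chd9 were also the longest of the 8 genes, at 162.1, 178.0 and 226.2 kb. Chd3 and Chd4 were the shortest, at 26.2 and 34.6 kb. Chd1, at 67.6 kb, was longer than Chd5 (51.5 kb) and Chd8 (59.9 kb). Length and subfamily were not told apart here, and shares at the length of each single gene were not computed. The same 5 genes had a peak in the conservative list. Over all protein-coding genes, 30.3% had an optimal peak in their window, and 35.5% of the 7486 genes between 26.2 and 226.2 kb long, the range of the Chd genes. In the conservative list the share was 28.6%. With 8 genes and no contrast between samples, the difference from these shares was not tested. The 5 windows held 10 optimal peaks, of which 3 lay closer to the start of a neighbour, Supt16, than to that of Chd8. Counting only peaks nearest to the 5′ end of the Chd gene itself, 7 peaks in the same number of genes, 5, were left. With 25 kb on each side instead of 10 kb, 7 of the 8 genes had a peak, beside 39.4% of all protein-coding genes.

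At the 5′ ends the picture was narrower. Chd6 alone had an optimal summit within 1 kb of its outer 5′ end, 1 gene of 8, where 14.6% of the 20564 genes with a known strand had one. Chd6 was also the one such gene in the conservative list, where 2884 of those 20564 genes had one. In the pooled relaxed list all 8 genes had a summit within 1 kb, beside 59.3% of all genes with a strand. The signals there ran from 6.34 at Chd5 (rank 214132) to 131 at Chd6 (rank 524), so that a relaxed peak at a 5′ end could be 1 of the strongest of the list or 1 of its weakest. Replicate 1 alone had such a relaxed peak at 6 of the 8 genes, beside 51.9% of all genes with a strand. Replicate 2 alone had one at 7, beside 61.2%.

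**Figure D1:**
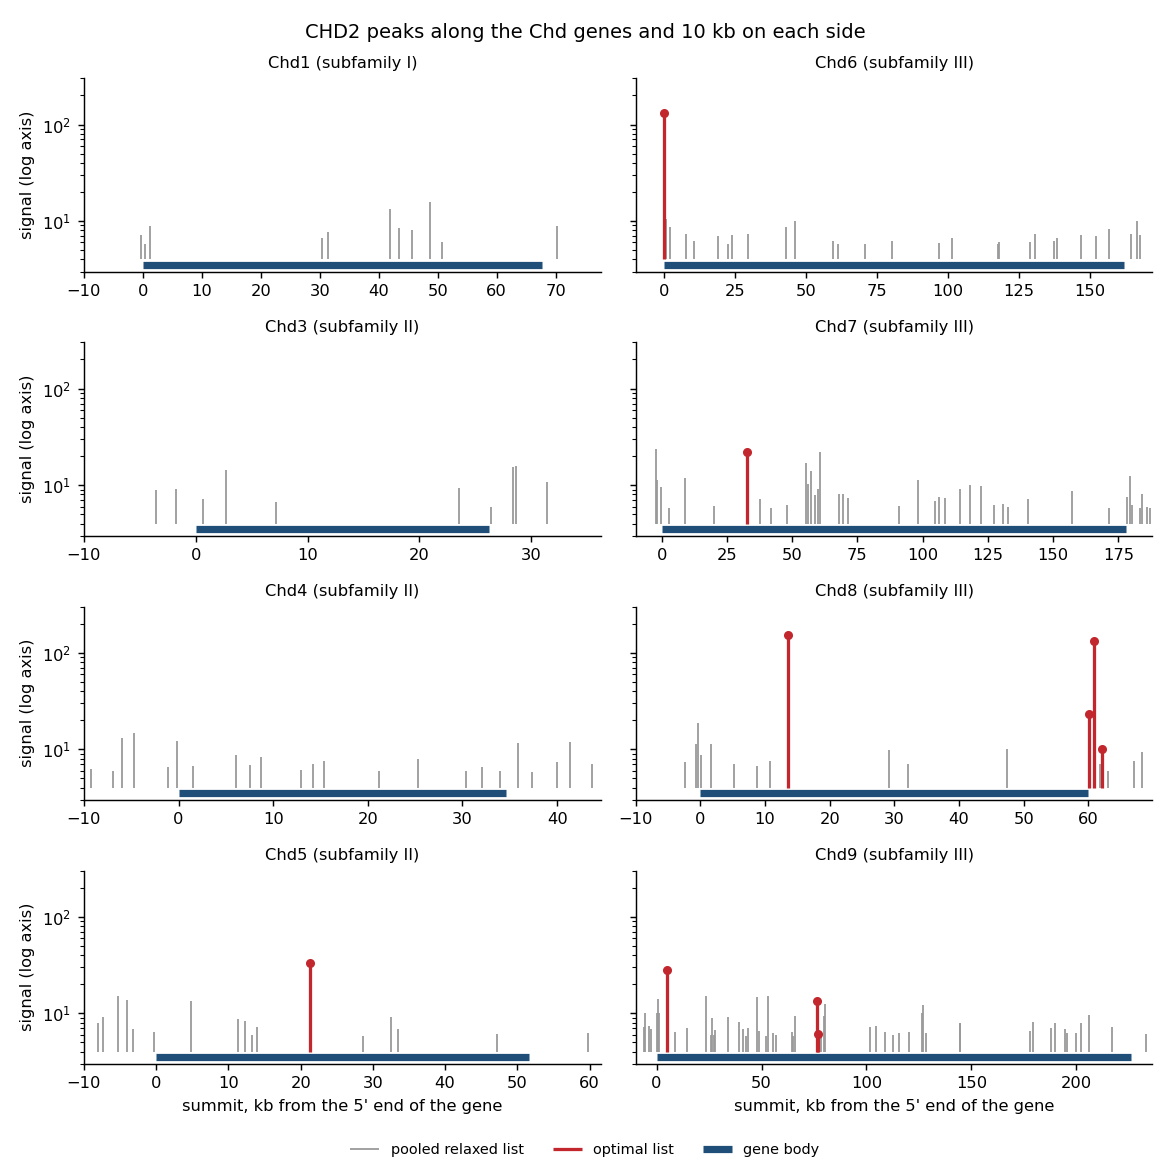
Summits of CHD2 peaks in the window of each Chd gene, in kb from the 5′ end of the gene in its direction of transcription, with the authors' signal on a log axis. Grey lines are peaks of the pooled relaxed list, red lines with a dot are optimal peaks and the blue bar is the gene body. The tall optimal peaks lie at the 5′ end of Chd6 (131), inside Chd8 (152) and just beyond the 3′ end of Chd8 (133), and Chd1, Chd3 and Chd4 have no optimal peak.

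Chd1 encodes the closest relative of CHD2, a remodeller that recognises methylated histone H3 at active genes. The gene spans chr17:15704967-15772612 on the plus strand. Its strongest pooled peak had a signal of 15.9 (rank 13618) and lay far inside the gene, 48739 bp from the 5′ end. In replicate 1 the strongest peak had a signal of 8.45 (rank 17369), 41969 bp from the 5′ end. In replicate 2 it had a signal of 9.53 (rank 12600), 41633 bp from the 5′ end. None of these was among the 8282 strongest of its list, the size of the optimal list. At the 5′ end itself the strongest pooled summit, 307 bp upstream, had a signal of 7.22 (rank 145748), close to the median of 7.16 over that whole list. The window held 11 pooled peaks in all.

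Chd3, Chd4 and Chd5 encode the motor subunits of NuRD. CHD4 is the main one in embryonic stem cells, whereas CHD5 is best known from neurons and the testis. Chd5 was the only one of these genes with an optimal peak.

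Chd3 (chr11:69343273-69369499, minus strand) had its strongest pooled peak beyond its 3′ end, with a signal of 15.7 (rank 13904). That summit lay 28610 bp from the 5′ end of Chd3, on the side where the gene Rnf227 shares the window. In replicate 1 the strongest peak lay at nearly the same place, at an offset of 28639 bp, with a signal of 7.14 (rank 31653). In replicate 2 a different peak was the strongest, 2817 bp inside the gene, with a signal of 9.51 (rank 12660). The replicates thus named different peaks, and neither was among the 8282 strongest of its list. Within 1 kb of the 5′ end, replicate 1 had a peak of signal 5.15 (rank 109150) and replicate 2 had none.

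Chd4 (chr6:125095980-125130591, plus strand) had its strongest pooled peak 4757 bp upstream, with a signal of 14.6 (rank 16491). Replicate 1 gave the same site, at 4744 bp upstream, with a signal of 9.22 (rank 13351). Replicate 2 gave a site 324 bp upstream of the 5′ end, with a signal of 9.56 (rank 12507). The pooled summit nearest to the start, 116 bp upstream, had a signal of 12.0 (rank 26961). In replicate 1 that site had a signal of 5.74 (rank 73282). Chd4 thus had relaxed peaks at its promoter in both replicates, outside the strongest 8282 peaks of each list.

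Chd5 (chr4:152338646-152390194, plus strand) had 1 optimal peak, at chr4:152359749-152360108, inside the gene. Its summit lay 21283 bp from the 5′ end, and no other gene's end was closer than 25847 bp. The signal was 33.1 in the optimal list (rank 3524) and the same in the conservative list (rank 3497). The replicates differed at this site. Its signal was 9.47 (rank 12378) in replicate 1 but 23.2 (rank 2379) in replicate 2, so it was among the 8282 strongest in replicate 2 only. Replicate 2 also placed 2 weaker peaks upstream of Chd5 among its strongest. One, with a signal of 16.2 (rank 4320), lay 5274 bp upstream and 710 bp from an end of the ribosomal protein gene Rpl22. The other, with a signal of 13.6 (rank 5994), lay 4034 bp upstream and 530 bp from an end of Rpl22. Neither site overlapped a peak of replicate 1.

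The start of Chd5 is shown because it was rich in CpG but carried the weakest 5′ peak of the 8 genes in the pooled list. The 250 bases before the RefSeq start, chr4:152338401-152338650 on the plus strand of GRCm38.p6, held 21 CpG and 67.2% G or C. The median over the promoters of protein-coding genes in the RefSeq table was 10 CpG. Capitals mark GGGCGG, the word of the Sp and KLF factors, on either strand. It was found 3 times in Chd5, and 8.47% of 32851 RefSeq promoters of that length held it 3 times or more. CCAAT, the word of the factor NFY, was not among these letters on either strand.
Chd5: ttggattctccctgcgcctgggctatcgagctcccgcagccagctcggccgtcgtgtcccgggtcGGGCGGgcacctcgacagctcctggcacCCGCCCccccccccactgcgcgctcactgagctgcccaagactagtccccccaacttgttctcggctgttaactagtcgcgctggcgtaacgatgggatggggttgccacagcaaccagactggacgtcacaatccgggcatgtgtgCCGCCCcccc
The strongest pooled summit within 1 kb, 351 bp upstream, had a signal of 6.34 (rank 214132). Replicate 2 had a peak of signal 5.08 (rank 66691) there and replicate 1 had none. The pooled summit lay further upstream than the printed letters, and its peak, chr4:152338115-152338474, overlapped only their far end. Among the other Chd genes, the Chd8 promoter held 20 CpG and the Chd4 entries held 12 and 23. CCAAT was found once in the Chd8 promoter and once in the Chd4 entry with 23 CpG. The Chd9 entries held 16 and 1 CpG, without CCAAT. Chd4, Chd8 and Chd9 had no optimal summit within 1 kb either.

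Chd6, Chd7, Chd8 and Chd9 each had at least 1 optimal peak. They span from 59.9 kb for Chd8 to 226.2 kb for Chd9. The window of Chd8 held 4 optimal peaks, that of Chd9 held 3, and those of Chd6 and Chd7 held 1 each. In the window of Chd8, 3 of the 4 lay nearest to the start of Supt16, and 1 lay within Chd8. The peaks of these genes took different positions. Optimal peaks lay at the start of Chd6, within Chd8 as RefSeq draws it, and at weaker sites within Chd7 and Chd9. The Chd7 peak overlapped no peak of replicate 2.

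Chd6, whose protein is known from the response to oxidative stress, had the only optimal promoter peak of the 8 genes. The peak, chr2:161109035-161109233, was 199 bp wide, and its summit lay 38 bp upstream of the 5′ end of the gene (chr2:160946978-161109086, minus strand). The signal was 131 in the optimal, the conservative and the pooled list, at rank 524 in each. Replicate 1 had a signal of 67.5 (rank 527) and replicate 2 a signal of 62.9 (rank 559). Rank and position were thus nearly the same in both replicates. No other gene's end lay closer than 112223 bp. Most optimal peaks, 88.2%, were 360 bp wide, and the narrower ones had a median signal of 134.

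The Chd6 promoter is printed because the summit falls within it. The stretch is the 250 bases before the RefSeq start, chr2:161109087-161109336 on the minus strand of GRCm38.p6, read 5′ to 3′ in the direction of the gene. Capitals mark CCAAT on either strand, matches of the POU factors' octamer, which is ATGCAAAT, and matches of the Sp and KLF word.
Chd6: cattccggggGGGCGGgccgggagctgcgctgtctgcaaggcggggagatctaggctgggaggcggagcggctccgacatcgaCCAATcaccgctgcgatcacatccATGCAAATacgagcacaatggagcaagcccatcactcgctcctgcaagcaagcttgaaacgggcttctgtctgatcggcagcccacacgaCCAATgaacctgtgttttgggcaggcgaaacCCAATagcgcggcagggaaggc
CCAAT was found 3 times, beginning 167, 53 and 22 bases before the start. The summit, 38 bp upstream, lay between the last pair. Of 32851 RefSeq promoters of this length, 33.8% held CCAAT on either strand and 2.79% held it 3 times or more. The octamer, beginning 143 bases before the start, was in 1.6% of them, and GGGCGG, found once, in 32.7%. The stretch held 19 CpG and 61.6% G or C. These matches describe the letters and show no bound factor.

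Chd7, which encodes an enhancer-binding remodeller mutated in CHARGE syndrome, had 1 optimal peak in its 178.0 kb (chr4:8690402-8868449, plus strand). It lay at chr4:8723053-8723412, 32831 bp from the 5′ end, in a stretch also covered by the long non-coding gene Gm46841, with a signal of 21.9 (rank 6162). Replicate 1 had a signal of 16.8 there (rank 3838), and no relaxed peak of replicate 2 overlapped it. The conservative list instead held another site, chr4:8750960-8751319, 60738 bp from the 5′ end, with a signal of 22.2 (rank 5762). Replicate 1 had a signal of 13.3 there (rank 5837) and replicate 2 a signal of 9.05 (rank 14180). The strongest pooled peak of this window, chr4:8688046-8688405, 2176 bp upstream of the gene, had a signal of 23.8 (rank 6171). It had a signal of 18.8 (rank 3331) in replicate 2, no overlapping peak in replicate 1, and was in neither IDR list. No site of Chd7 thus ranked among the 8282 strongest peaks in both replicates.

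Chd8, which encodes a binder of beta-catenin often mutated in autism, had 4 optimal peaks in its window (gene chr14:52198151-52258042, minus strand). Only 1 lay within the gene. That peak, chr14:52244460-52244653, was 194 bp wide and had the highest signal of all the Chd windows, 152 at rank 417 of the optimal list, with the same rank in the conservative list. In replicate 1 its signal was 55.0 (rank 732), and in replicate 2 it was 94.1 (rank 263). The summit lay 13489 bp inside the gene as RefSeq draws it on mm10. The nearest end of another gene, that of Rab2b, was 17206 bp away.

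The mm9 list, called separately on the older build with 4613 peaks, placed a peak of signal 190 (rank 451) at chr14:52864108-52864337. In GENCODE M1, the mm9 annotation, Chd8 is 39641 bp long where the RefSeq gene on mm10 has 59892 bp. Against that shorter model the summit lay 6760 bp upstream of the 5′ end. Its distance to the summit at Supt16 was 47351 bp on mm9, and the distance between the internal Chd8 summit and the Supt16 summit was 47353 bp on mm10. Whether this strong site counted as within Chd8 or upstream of it therefore depended on the annotation. Its sequence is shown from the mm9 genome, as the strongest site of the 8 windows, on the minus strand and thus in the direction of Chd8. Capitals mark CCAAT and GGGCGG on either strand.
Chd8 site: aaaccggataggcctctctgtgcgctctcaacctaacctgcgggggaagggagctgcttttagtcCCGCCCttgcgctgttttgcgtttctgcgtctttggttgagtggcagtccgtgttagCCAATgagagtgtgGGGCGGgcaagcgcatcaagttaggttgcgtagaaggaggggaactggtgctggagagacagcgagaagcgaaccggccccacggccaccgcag
It held CCAAT once and GGGCGG in 2 places, both within 100 bp of the summit. Over 200 bp around the summit, 47.1% of the mm9 peaks held CCAAT and 27.0% held GGGCGG. The same 200 bp held 13 CpG, against a median of 6 over the mm9 peaks. The mm9 peak of Chd6, at chr2:160934761-160934982, had a signal of 159 (rank 551), 9 CpG over 200 bp, CCAAT in 2 places and the octamer once, a word in 2.58% of the mm9 peaks.

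The remaining optimal peaks of the Chd8 window belonged by position to Supt16, which encodes a subunit of the histone chaperone FACT and begins just beyond the 3′ end of Chd8. The strongest, chr14:52197105-52197286, had a signal of 133 (rank 511), and its summit lay 39 bp inside Supt16. In replicate 1 its signal was 93.1 (rank 328), and in replicate 2 it was 41.4 (rank 1078). It was the strongest peak of the Chd8 window in replicate 1, whereas the internal peak was the strongest in replicate 2. A second peak, 694 bp upstream of Supt16, had a signal of 23.2 (rank 5737). The last, 1238 bp inside Supt16, ranked 7891 and was absent from the conservative list. The RefSeq 5′ end of Chd8 itself had no optimal peak. The pooled list had a peak 423 bp upstream of it with a signal of 18.5, whose rank of 9813 fell just short of the 8282 strongest. In replicate 1 the strongest peak near that end lay 458 bp upstream, with a signal of 10.1 (rank 10566). In replicate 2 it lay 167 bp inside the gene, with a signal of 10.1 as well (rank 11117).

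Chd9, the least studied of the family, known from osteoprogenitor cells, had 3 optimal peaks, all inside the gene (chr8:90828302-91054516, plus strand). The strongest, chr8:90832941-90833300, lay 4819 bp from the 5′ end with a signal of 28.3 (rank 4414). Its signal was 11.6 (rank 7613) in replicate 1 against 14.2 (rank 5493) in replicate 2, and it was also in the conservative list, at rank 4293. The others overlapped each other. They lay 76486 and 76703 bp from the 5′ end, with signals of 13.5 (rank 7616) and 6.02 (rank 8247). The weaker one ranked 258251 in the pooled list, whose lowest signal was 5.74. In each replicate the strongest relaxed peak overlapping them was the same for both. Its signal was 16.1 (rank 4147) in replicate 1 but 6.5 (rank 32879) in replicate 2. Neither of this pair was in the conservative list. At the 5′ end of Chd9 replicate 2 had a peak of signal 13.1 (rank 6444), 455 bp inside the gene. Replicate 1 had a peak of signal 5.96 there (rank 63664). The Chd9 promoter was therefore among the 8282 strongest peaks in replicate 2 only.

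**Figure D2:**
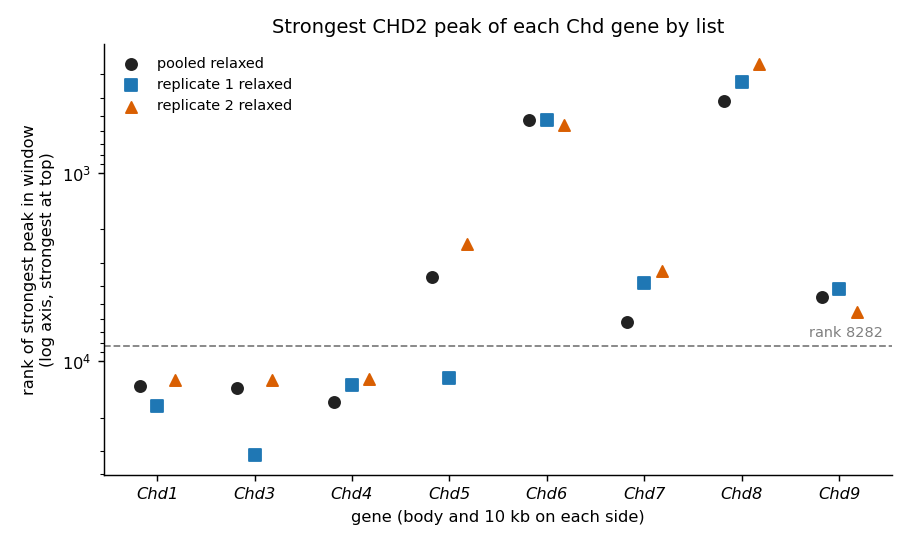
Rank of the strongest CHD2 peak in the window of each Chd gene in the pooled relaxed list (black circles), replicate 1 (blue squares) and replicate 2 (orange triangles), on a log axis with the strongest at the top. The dashed line marks rank 8282, the size of the optimal list. Chd6 and Chd8 lie far above the line in all 3 lists, Chd1, Chd3 and Chd4 below it in all 3, and Chd5 crosses it between the replicates (12378 and 2379).

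With each replicate limited to its 8282 strongest peaks, 4 Chd genes had a peak in replicate 1 (Chd6 to Chd9), beside 31.6% of all protein-coding genes. In replicate 2, 5 genes had one (Chd5 to Chd9), beside 31.2%. Chd1, Chd3 and Chd4 had none in either. Of the 10 optimal peaks in the Chd windows, 4 were among the strongest in both replicates. They were the Chd6 promoter, the internal Chd8 site, the Supt16 start and the Chd9 site near its 5′ end. A further 3 matched a strongest peak in replicate 1 only and 2 in replicate 2 only, and 6 overlapped a conservative peak. Those 3 include the overlapping pair in Chd9, which share 1 relaxed peak. The 3 strongest of the 10 ranked within the first 1078 of each replicate.

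**Figure D3:**
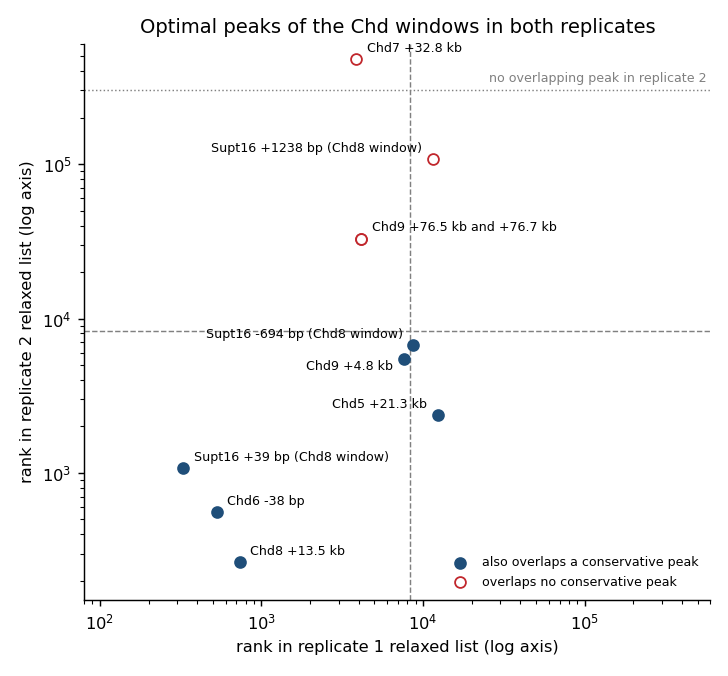
Ranks of the 10 optimal peaks of the Chd windows in the relaxed list of replicate 1 (horizontal) and replicate 2 (vertical), both on log axes, each labelled by its offset from a gene's 5′ end. Filled points overlap a conservative peak, open points do not, dashed lines mark rank 8282, and the point above the dotted line had no overlapping peak in replicate 2. The peaks at Chd6, inside Chd8 and at Supt16 stand at the lower left, and the pair in Chd9 falls on 1 point because both match the same relaxed peak.

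The order of the 8 genes by their strongest pooled signal was Chd8 (152), Chd6 (131), Chd5 (33.1), Chd9 (28.3), Chd7 (23.8), Chd1 (15.9), Chd3 (15.7) and Chd4 (14.6). A wide gap separated Chd8 and Chd6 from the rest. Neighbours further down the order could change places, since replicate 1 put Chd9 and Chd7 above Chd5 and replicate 2 put Chd5 first of those 3. Chd8 exceeded 96.5% of protein-coding genes in this value and Chd6 exceeded 95.8%. Chd5, Chd9 and Chd7 exceeded between 70.0% and 78.7% of genes. Chd1, Chd3 and Chd4 lay near the middle, above 48.8% to 53.1% of genes. These shares are over the genes with a pooled peak in their window, 19569 of 21900.

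The median of the 8 values was 26.1, beside 14.9 over the genes with a pooled peak. The median Chd gene was 63.8 kb long and the median protein-coding gene 17.1 kb. Among genes in the length range of the Chd genes the median was 16.1. Against those genes Chd8 exceeded 96.4%, Chd6 95.5% and Chd4 44.0%. The density of optimal peaks was 10.3 per Mb over the Chd windows, 6.75 over the windows of all protein-coding genes and 5.87 over those of like length. The pooled relaxed list had 214, 164 and 174 peaks per Mb in the same sets. Of the 10 optimal peaks in the Chd windows, 3 lay nearest to the start of Supt16 and 7 to that of the Chd gene. Windows of the other genes also take in peaks nearest to a neighbour, and densities without such peaks were not computed for any set. How far the other values reflect the 8 chosen genes or their neighbours was not tested.

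**Figure D4:**
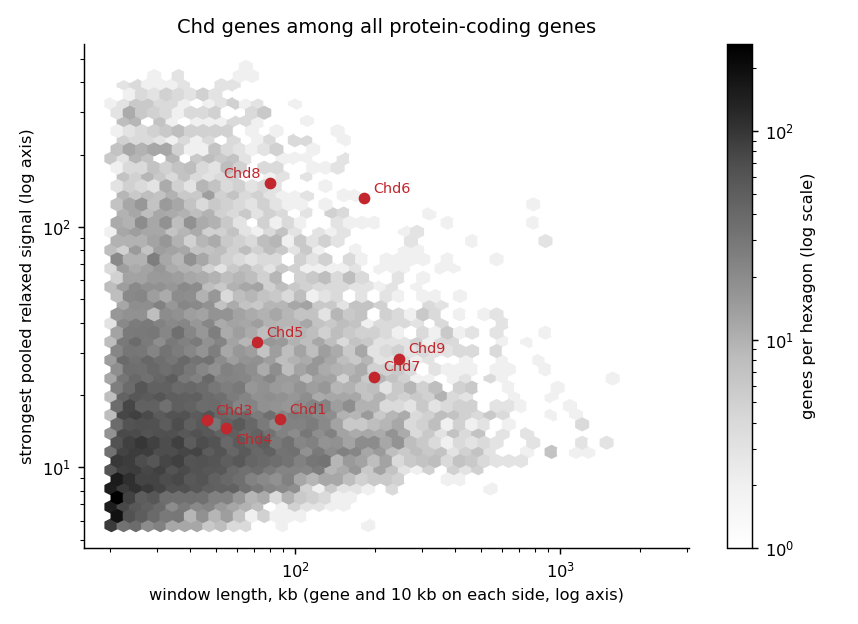
Strongest pooled relaxed signal in the window of each protein-coding gene with such a peak, against the length of the window in kb, both on log axes, with grey hexagons shaded by the number of genes and the Chd genes as red points. Chd8 (152) and Chd6 (131) lie above 96.4% and 95.5% of the genes in the length range of the Chd genes, and Chd1, Chd3 and Chd4 (14.6 to 15.9) lie within the dense part of the plot.

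Chd2, the gene of the precipitated protein, gives the remaining member of the family. It had 4 optimal peaks in its window, with its strongest at a signal of 28.0 (rank 4506) and 6462 bp inside the gene. That peak ranked 2480 in replicate 1 but 24817 in replicate 2, and it overlapped no conservative peak. Like 7 of the 8 relatives, Chd2 had no optimal summit within 1 kb of its 5′ end. The conservative list did hold one, 154 bp inside Chd2, with a signal of 9.82 (rank 7206). Its strongest pooled signal exceeded 74.7% of genes, between Chd7 and Chd9.

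Genes for the protein partners of the CHD enzymes were examined at their 5′ ends, from 4 lists with 27 genes in all. Of these, 16 (59.3%) had an optimal summit within 1 kb, beside 14.6% of all genes with a strand, whereas 1 of the 8 Chd genes did. The partner lists and the Chd genes were chosen with earlier results of these data known, and this difference was not tested. Supt16, a partner gene with such a summit, also lies in the window of Chd8. Among 12 NuRD subunit genes, 8 had such a peak. The GATA zinc finger subunits led, with a signal of 113 at Gatad2a (rank 662) and 111 at Gatad2b (rank 680). The deacetylase gene Hdac1 (34.9), the methyl-CpG-binding genes Mbd3 (32.7) and Mbd2 (24.0), Cdk2ap1 (21.0) and Rbbp7 (18.5) followed. Hdac2 came last with a signal of 7.0 (rank 8155). Of these genes, 4 did not rank among the 8282 strongest peaks in both replicates. Mbd2 ranked 47533 in replicate 1 and 4262 in replicate 2, and Cdk2ap1 ranked 5552 and 52024. Rbbp7 ranked 31374 and 9981, and Hdac2 ranked 26880 in replicate 1 with no overlapping peak in replicate 2. The subunit genes Mta1, Mta2, Mta3 and Rbbp4 had no such summit. The motor genes Chd3, Chd4 and Chd5 had none at their 5′ ends either.

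ChAHP is a complex of CHD4 with the zinc finger protein ADNP and HP1 proteins. Adnp had the strongest promoter peak of all 27 partner genes, with a signal of 260 (rank 135), and its signal was 131 in replicate 1 and 133 in replicate 2. The HP1 gene Cbx1 had a signal of 47.9 (rank 2092), with 41.0 (rank 1062) in replicate 1 and 9.5 (rank 12661) in replicate 2, and Cbx3 had no such summit. Of 7 elongation factor genes linked to CHD1, 3 had a promoter peak, at Supt16 (133), Paf1 (43.0) and Ssrp1 (34.3). The Paf1 summit lay closer to Med29 and the Ssrp1 summit closer to P2rx3. Rtf1, Leo1, Ctr9 and Cdc73 had none within 1 kb. Of 5 genes whose proteins bind CHD8, Ash2l (65.1), Ctnnb1 (26.8) and Rbbp5 (25.1) had a summit within 1 kb, whereas Wdr5 and Ctcf did not. Their windows still held optimal peaks. The one in the window of Wdr5 had a signal of 102 (rank 766). It lay 24905 bp from the 5′ end of Wdr5, in the flank beyond its 3′ end. That of Ctcf had a signal of 28.6 (rank 4349), 1105 bp from its 5′ end and thus just outside the limit. Mta2, Mta3, Rtf1 and Leo1 likewise had an optimal peak in their windows only. Over all protein-coding genes, 30.3% had an optimal peak in their window. Of the 16 partner peaks, 11 overlapped a conservative peak, and those of Hdac2, Mbd2, Rbbp7, Cdk2ap1 and Ctnnb1 did not.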

How the data were processed

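CHD2 ChIP-seq of 2 biological replicates of ES-E14 was analysed from deposited peak lists, which give per peak a signal, a −log10 q-value and a summit offset. Per the deposited descriptions, the IDR lists were made from the relaxed lists of both replicates and the pooled list. The peak caller is not given in the sources used here, nor is the aligner, and the control was not analysed here. How these steps weighed the control can shift every signal. The deposited signal, with no stated normalization, is the authors' value and served to rank peaks within a list. The deposited −log10 q-values entered no result.

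Peaks were joined to RefSeq genes of GRCm38.p6 with an overlap of 1 bp or more, over the gene and 10 kb on each side. Promoter peaks are those with a summit at most 1 kb from the outer 5′ end, so internal starts are missed. The gene table has no strand, so strand came from GENCODE M1 by symbol or synonym for 20564 of 21900 genes (93.9%). It was the same as in the RefSeq promoter table for 16475 of 16525 genes checked (99.7%). Each optimal peak was matched to the strongest overlapping relaxed peak. The mm9 list was set against GENCODE M1 and its genome. Apart from strand, which came from this mm9 annotation, no annotation was carried between builds. The sites in the Chd8 window were compared between builds by the distance between their summits. RefSeq promoter sequences matched 5 of the 8 genes. Words were matched exactly on both strands.

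Named are all 8 members, Chd2, the nearer gene where a peak lay closer to it, further neighbours seen beside a peak, and the partner genes by list. The members and lists were chosen with earlier results of these data known. The alternatives were other lists, each replicate alone, other windows and the mm9 list. With 1 group there was no test between samples. The counting was tested on simulated data. Python 3.11.15, numpy 2.4.6 and pandas 2.3.3 were used.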

Additional observations from a re-analysis of the deposited data

How the results depend on the processing

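The count of Chd genes with a peak was 5 in the optimal, the conservative and the equally long pooled list, for gene bodies alone and with the summit required in the window, and 7 with 25 kb on each side, which added Chd3 and Chd4 through peaks 6029 bp from the start of Kcnab3, at the start of Iffo1 and 12282 bp from the start of Lpar5, while the share over all genes rose from 30.3% to 39.4%. It fell to 3 in the optimal peaks above the median signal, where Chd7 and Chd9 dropped out, and to 2 in the mm9 list, whose lowest signal was 32.7. The number of peaks, 10, fell to 4 and to 3 under the same settings, and ranged from 7 to 13 under the others. Restricting peaks to those nearest to the Chd gene was chosen after seeing the data and gave 5 genes and 7 peaks. Using 1 replicate alone gave 4 to 5 genes, 7 to 10 peaks and 1 to 2 genes with a promoter peak, the second being Chd9 in replicate 2. The median strongest signal of 26.1 was 12.8 without replicate 2 and 16.5 without replicate 1, each on that list's own signal scale, and 25.2 to 35.2 with other windows. The partner count of 16 ranged from 11 to 17. The rank of a gene's strongest peak stayed within 1.5 times the pooled rank for 5 of 8 genes in each replicate and for 7 of 8 in gene bodies alone, where Chd4 moved to rank 26961. No paired analysis was possible because there was 1 group. Read depth is unknown and limits what a missing peak can show.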
